A study of Mus musculus with 12 samples.

Results

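Oxidative phosphorylation is the making of ATP by the respiratory chain in the mitochondrial inner membrane. It was followed through the mRNAs of its subunits in mouse anterior pituitary cells sorted by a Pomc reporter and labelled corticotrophs. The members were every gene of the expression table whose symbol names a subunit of complexes I to V or the somatic cytochrome c, which gave 98 of 55304 genes. Of these, 13 are encoded by mitochondrial DNA and 85 by nuclear DNA. By complex, 42 belong to complex I, 4 to complex II, 9 to complex III, 23 to complex IV, 19 to complex V and 1 is cytochrome c. The rule used gene names and no measured value, but it was set with earlier results of these data known. Ndufab1, a complex I subunit that is also the mitochondrial acyl carrier protein, has a symbol outside the naming pattern and was followed separately.

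Complexes I to IV pass electrons from NADH and succinate to oxygen and, apart from complex II, pump protons as they do so, and complex V (ATP synthase) uses the proton gradient to make ATP. All complexes but complex II, which is wholly nuclear encoded, combine subunits made inside the mitochondrion with subunits imported from the cytosol, so that 2 genomes must supply parts of 1 machine. Many of the imported subunits are short accessory proteins with short mRNAs, and several of complex IV exist as isoforms restricted to muscle, brown fat, lung or testis. Corticotrophs are the anterior pituitary cells that make ACTH from pro-opiomelanocortin, the product of Pomc.

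All mice were males on a C57Bl6/J background that carried a Pomc-eGFP transgene, labelled POMC-GFP, and were 8 weeks old when the protocol began. Group A (control) drank plain water. Group B (DEX) received dexamethasone, a synthetic glucocorticoid, at 2.5 µg/ml in the drinking water for 4 weeks. Group C (7 day recovery) and group D (28 day recovery) received the same 4 weeks of dexamethasone and were then taken off it for 7 or 28 days. Each group held 9 mice, and each of its 3 libraries was made from 1 pool of eGFP positive cells sorted from the anterior lobes of 2 to 3 pituitaries, with gates set on wild-type animals (n = 3 pools a group throughout). The comparisons ask whether prolonged glucocorticoid exposure, and the time after its withdrawal, went with altered mRNA levels of the respiratory machinery.

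The 12 libraries held 7719894 to 12848078 reads on genes, and values are given as normalised counts, which are reads scaled to a common library size (CPM) after edgeR's TMM adjustment, so that 1 read was worth 0.0787 to 0.127. The sort reporter is the Pomc transgene, and Pomc itself took 0.454 to 20% of reads, while the somatotroph hormone Gh took 8.20 to 22.9% and the lactotroph hormone Prl 3.5 to 10.3%. All 6 corticotroph markers were above 0 in each library. The summed corticotroph markers were 35294 to 75533 in control, 5558 to 9417 in DEX, 43869 to 286223 in 7 day recovery and 48721 to 80895 in 28 day recovery. This sum mainly follows Pomc, which alone was 34562 to 74260 in control and 4241 to 8521 in DEX. In 7 day and 28 day recovery Pomc was 43612 to 284740 and 48189 to 80216. The other corticotroph markers are not given apart from it. The summed somatotroph markers, 3 genes, were 79121 to 221563 in control and 67894 to 104436 in DEX. In 7 day and 28 day recovery they were 92074 to 221152 and 150647 to 266215. Those of lactotrophs, 2 genes, were 31514 to 79022 in control and 48163 to 73365 in DEX. In 7 day and 28 day recovery these were 43634 to 111760 and 86399 to 119834. The summed endothelial markers, 5 genes, were 6.53 to 61.9 in control, 2.82 to 7.85 in DEX, 24.1 to 155 in 7 day recovery and 73.7 to 139 in 28 day recovery. The summed proliferation markers, 4 genes, were 1.08 to 2.04 in DEX and 11.2 to 33.9 in 7 day recovery. The summed fibroblast and pericyte markers, 5 genes, were 96.0 to 152 in control, 76.5 to 118 in DEX, 85.4 to 228 in 7 day recovery and 173 to 286 in 28 day recovery. The summed macrophage markers, 5 genes, were 32.2 to 65.5 in 7 day recovery and 33.2 to 74.5 in 28 day recovery, and lower than these in all control and DEX pools, down to 21.7. The 28 day pools also held more of the thyrotroph markers (452 to 711, against 43.9 to 306 in the other 9 pools) and of the stem and folliculostellate markers (113 to 148, against 58.6 to 99.7). Against DEX, limma called Col3a1, Kdr, Ccnb2 and Top2a higher in 7 day recovery, and Col3a1, Pdgfrb, Kdr, Emcn, Plvap, Pecam1 and Tshb higher in 28 day recovery. The part of these marker differences, or of any change in cell content behind them, in the values of the members was not tested. In bulk samples fewer cells of a type and less RNA per cell cannot be told apart.

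All 98 members had a value above 0 in at least 1 library and passed the filter on low values. The mitochondrially encoded members took 0.619 to 1.46% of the reads of a library, with 95% Wilson intervals of at most 0.00782 percentage points to either side. The nuclear encoded members took 0.920 to 1.4%. The ratio of mitochondrial to nuclear member reads lay between 0.560 (7 day recovery pool 2) and 1.25 (7 day recovery pool 3), so the lowest and the highest ratio were both seen in 1 group. In that last pool the 7 mitochondrial members of complex I reached 0.711% of all reads, against 0.239% in the lowest library.

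The 13 mitochondrially encoded mRNAs divided into 7 that were high and 6 that were far lower, although they come from the same polycistronic precursors. A stretch of the nuclear genome bears on this. On GRCm38, chr1:24611535-24616197 holds 7 annotated unprocessed pseudogenes on the minus strand, each a copy of a mitochondrial gene, and the authors counted only reads with a mapping quality of at least 20, a score that a read matching 2 places equally well does not reach by default in the aligner used. Of the 6 low mRNAs, 5 were copied there over 99.0 to 99.9% of their length at 99.7 to 100% identity. The stretches printed here show how little separates gene and copy. They are coding sequence of the GENCODE M21 transcripts (GRCm38), 5′ to 3′ and 60 bases each, with capitals at the only base that differs within the stretch. mt-Nd3, a core proton pump subunit of complex I, lies at chrM:9459-9806 (plus strand), and its bases 1 to 60 are shown beside its copy Gm28438 (chr1:24612775-24613119, minus strand), with the substitution T3C counted from the first base of mt-Nd3. mt-Co3, a core subunit of complex IV, lies at chrM:8607-9390 (plus strand), and its bases 362 to 421 are the same in Gm28437 (chr1:24613189-24613971, minus strand). mt-Co1, the catalytic subunit of complex IV, lies at chrM:5328-6872 (plus strand) and is copied in its last part only: 483 of its 1545 bases align to Gm29216 (chr1:24615706-24616197, minus strand), with A1066T counted from the first base of mt-Co1.
mt-Nd3: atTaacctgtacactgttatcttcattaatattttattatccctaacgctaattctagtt
Gm28438: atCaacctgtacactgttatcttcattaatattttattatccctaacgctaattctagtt
mt-Co3: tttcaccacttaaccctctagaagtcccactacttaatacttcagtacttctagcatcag
Gm28437: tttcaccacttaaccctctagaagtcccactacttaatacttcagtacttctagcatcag
mt-Co1: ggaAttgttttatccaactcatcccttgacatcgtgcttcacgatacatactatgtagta
Gm29216: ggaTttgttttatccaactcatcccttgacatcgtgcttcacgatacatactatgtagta

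Levels per kilobase of transcript, as means over the 12 libraries, separated the fully copied mRNAs from the others, with mt-Atp8 as the exception. The 5 without an annotated copy were mt-Cytb at 2346, mt-Nd1 at 1747, mt-Nd6 at 491, mt-Nd2 at 444 and mt-Nd5 at 434 normalised counts per kilobase. mt-Co1, copied over 31.3% of its length, stood at 1784, and mt-Nd4, copied over 63.6%, at 596. The fully copied mRNAs were at 37.6 (mt-Nd3), 22.8 (mt-Co3), 9.96 (mt-Atp6), 8.98 (mt-Co2) and 0.98 (mt-Nd4l) per kilobase. mt-Atp8, which encodes a small subunit of the membrane part of complex V and has no annotated copy of its own, was also low, at 1.09 per kilobase, with 0 to 5 reads a library. It shares 43 bases with mt-Atp6, and the genome between the copies Gm10925 and Gm28661, where a copy of it would lie, was not searched here. The part of the copies and of the quality filter in these low levels was not tested. The pseudogenes were themselves counted at low levels, with Gm28437 the highest at 7.70 to 22.3 normalised counts and Gm28438 at 0 to 1.11. The values of these 6 mRNAs in the comparisons count only the reads that were kept.

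**Figure D1:**
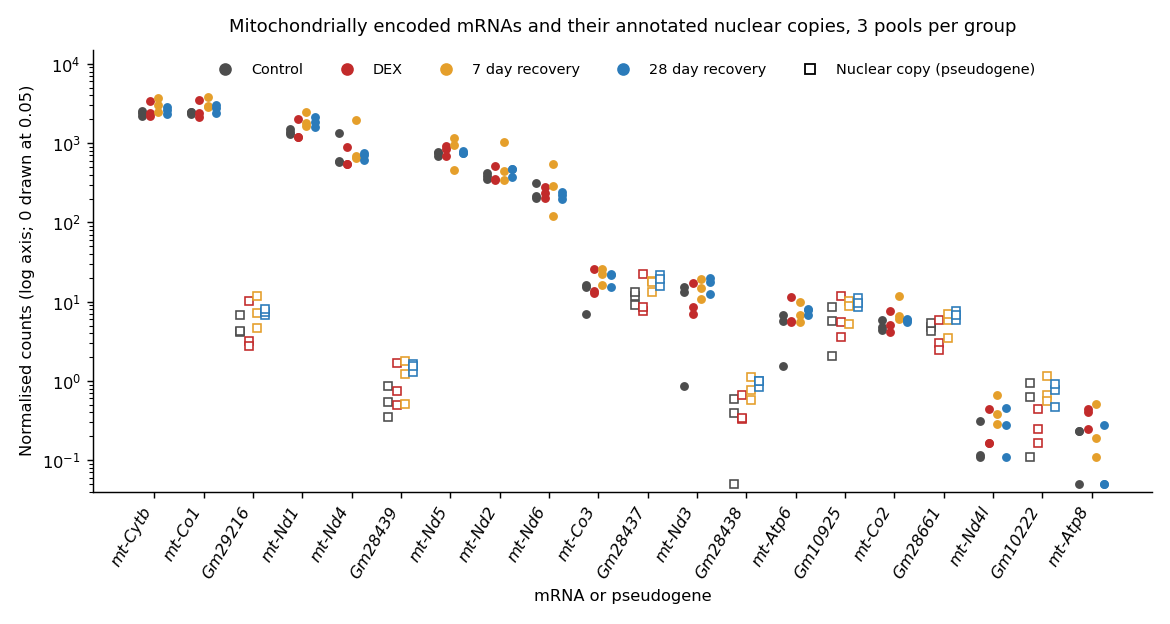
Normalised counts of the 13 mitochondrially encoded mRNAs on a log axis, 1 filled point for each of the 12 pools, coloured by group, with the annotated nuclear copies as open squares and values of 0 drawn at 0.05. The 7 high mRNAs lie between 120 and 3783 in every pool, and the 6 others lie at 26.0 or less, with mt-Atp8 and mt-Nd4l near the value of 1 read.

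mt-Cytb, the only mitochondrially encoded subunit of complex III, was 2402, 2224 and 2516 in the control pools, 2425, 2176 and 3428 in DEX, 3057, 2496 and 3747 in 7 day recovery and 2322, 2591 and 2818 in 28 day recovery. mt-Co1 was 2504, 2471 and 2340 in control, 2372, 2123 and 3488 in DEX, 2934, 2880 and 3783 in 7 day recovery and 2418, 2748 and 3007 in 28 day recovery. For both mRNAs, DEX pool 3 and 7 day recovery pool 3 were the highest and all the groups but control and 7 day recovery of mt-Co1 overlapped. mt-Nd1, a complex I subunit next to the quinone binding site, was 1524, 1399 and 1287 in control and above these in all 3 pools of 7 day recovery (1648, 1798 and 2444) and of 28 day recovery (1583, 1839 and 2145), with 1199, 1205 and 1998 in DEX. mt-Nd4, a proton pump subunit of complex I, was 583, 597 and 1333 in control, 541, 551 and 893 in DEX, 691, 655 and 1949 in 7 day recovery and 608, 707 and 750 in 28 day recovery. Control pool 3 and 7 day recovery pool 3 thus stood apart from the other 10 pools for mt-Nd4. The other complex I mRNAs mt-Nd2 (345 to 1047), mt-Nd5 (464 to 1155) and mt-Nd6 (120 to 549) all had both their lowest and their highest value in 7 day recovery, in pool 2 and pool 3, respectively. mt-Nd6 is the only mRNA of the light strand, and it shares 14 bases with mt-Nd5 on the other strand. Among the low mRNAs, mt-Nd3 ranged from 0.87 in control pool 3 to 19.6, mt-Co3 from 7.07 in the same pool to 26.0, mt-Atp6 from 1.52, also in that pool, to 11.4, mt-Co2 from 4.17 to 11.8 and mt-Nd4l from 0.109 to 0.667.

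The nuclear encoded members lay on 19 chromosomes and had transcripts of 231 to 4715 bases, with a median of 765. Their levels per kilobase, again as means over the 12 libraries, spanned the range from Uqcr11, a small accessory subunit of complex III, at 716 down to Cox8c, a testis isoform of complex IV, at 0.112. The accessory subunits Ndufa1 (complex I, 565), Cox8a (complex IV, 484) and Cox6a1 (complex IV, 410) followed Uqcr11, ahead of Atp5b, the catalytic beta subunit of complex V, at 401. Cytochrome c (Cycs), the mobile electron carrier between complexes III and IV, was low at 12.2 per kilobase over a transcript of 3123 bases. For 8 members the principal transcripts differed more than 1.5 times in length, so that their level per kilobase depends on the transcript chosen.

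Within complex I, core subunits of the peripheral arm, which carries the flavin and the iron-sulphur clusters, stood at 138 (Ndufs7), 120 (Ndufs8), 83.3 (Ndufv1), 68.3 (Ndufv2), 54.7 (Ndufs3) and 40.6 (Ndufs1) normalised counts per kilobase. Complex II, the succinate dehydrogenase shared with the tricarboxylic acid cycle, had 164 for the flavoprotein Sdha, 106 for the iron-sulphur subunit Sdhb, and 82.2 and 26.2 for the membrane anchors Sdhd and Sdhc. The core subunits of complex III were at 127 (Uqcrc1), 105 (Uqcrfs1, the Rieske protein) and 52.4 (Uqcrc2). In complex V, the alpha and gamma subunits Atp5a1 and Atp5c1 were at 284 and 139. The 3 genes for the same c-ring protein of complex V were unequal, with Atp5g3 at 275, Atp5g2 at 67.0 and Atp5g1 at 40.2 per kilobase of the longest principal transcript, or 279, 111 and 318 per kilobase of the shortest, so that the order of Atp5g1 and Atp5g3 depended on the transcript.

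The isoform pairs of complex IV were almost wholly of the broadly expressed kind. Cox4i1 stood at 351 per kilobase against 0.488 for the lung isoform Cox4i2, Cox6a1 at 410 against 0.906 for the muscle isoform Cox6a2, and Cox6b1 at 305 against 2.44 for the testis isoform Cox6b2. Cox7a2 was at 223 and the supercomplex factor Cox7a2l at 60.1, against 5.28 for the muscle isoform Cox7a1, and Cox7b was at 77.0 against 0.43 for the testis isoform Cox7b2. Cox8a, at 484, stood beside 6.75 for Cox8b, an isoform of muscle and brown fat, and 0.112 for Cox8c. Single values of the minor isoforms rested on few reads, and the count of Cox8b ranged from 1 to 99 reads a library.

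**Figure D2:**
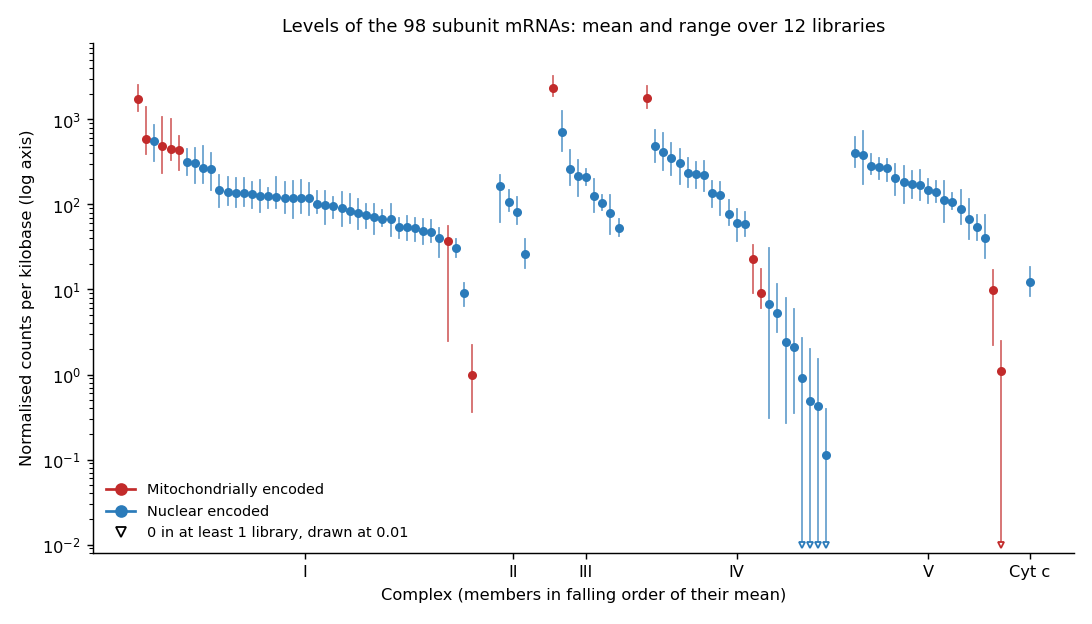
Mean normalised counts per kilobase of transcript for the 98 members on a log axis, 1 point per member with a line from the lowest to the highest of the 12 libraries, set out by complex and coloured by genome of origin. The mitochondrial mRNAs separate into 7 at 434 or more and 6 at 37.6 or less, and 8 tissue-restricted nuclear isoforms lie at 6.75 or less.

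The promoters of the nuclear members were read for 3 short motifs of factors known for respiratory genes: NRF1 (GCATGCGC), ETS/GABPA (CCGGAAG) and YY1 (AAGATGGC), each on both strands in a window of 300 bases around the start. The RefSeq promoter table (GRCm38.p6) held 68 of the 85 nuclear members among 27025 genes. The NRF1 letters were present in 11 of the 68 (16.2%) against 3.05% of all promoters. The ETS/GABPA letters were present in 17 (25.0%) against 9.93%, and the YY1 letters in 9 (13.2%) against 3.19%. At least 1 of the 3 motifs was found for 31 members (45.6%) against 14.9% of all promoters. YY1 letters lay in 7 of 31 promoters of complex I, 2 of 14 of complex V, and 0 of 3, 0 of 5 and 0 of 14 of complexes II, III and IV. ETS/GABPA letters lay in 4 of 31 promoters of complex I (12.9%), 2 of 3 of complex II, 2 of 5 of complex III, 3 of 14 of complex IV and 6 of 14 of complex V. These are small numbers, and whether the complexes differed was not tested. The letters do not show that a factor was bound. Shown here, 5′ to 3′ on the strand of the gene, are 250 bases before the start and 10 after it for cytochrome c, for the major isoform Cox6a1, which holds 2 of the motifs, and for Uqcrh and Atp5e, 2 of the 3 nuclear members that were named for the comparison of 7 day recovery with DEX by their p and pools, and capitals mark the motif letters. The promoter of Ndufa1, the other member named for that comparison, holds none of the 3 motifs and is not printed. All 4 printed genes lie on the minus strand, and the windows are chr6:50566560-50566819 (Cycs), chr5:115348949-115349208 (Cox6a1), chr4:116075061-116075320 (Uqcrh) and chr2:174464092-174464351 (Atp5e).
Cycs: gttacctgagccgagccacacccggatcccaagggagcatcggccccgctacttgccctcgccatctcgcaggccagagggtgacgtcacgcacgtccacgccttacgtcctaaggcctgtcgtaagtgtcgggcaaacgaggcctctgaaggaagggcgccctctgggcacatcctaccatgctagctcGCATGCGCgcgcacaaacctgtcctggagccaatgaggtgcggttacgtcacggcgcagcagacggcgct
Cox6a1: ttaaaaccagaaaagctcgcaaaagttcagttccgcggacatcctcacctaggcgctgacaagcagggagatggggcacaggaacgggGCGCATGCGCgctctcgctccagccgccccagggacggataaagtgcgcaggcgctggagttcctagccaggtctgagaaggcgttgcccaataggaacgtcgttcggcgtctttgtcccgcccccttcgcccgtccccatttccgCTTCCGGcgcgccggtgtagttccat
Uqcrh: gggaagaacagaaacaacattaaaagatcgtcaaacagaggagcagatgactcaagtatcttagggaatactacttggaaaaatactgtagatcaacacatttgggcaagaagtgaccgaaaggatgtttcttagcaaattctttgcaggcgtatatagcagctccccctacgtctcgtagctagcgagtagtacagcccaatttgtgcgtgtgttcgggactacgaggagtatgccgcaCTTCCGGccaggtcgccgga
Atp5e: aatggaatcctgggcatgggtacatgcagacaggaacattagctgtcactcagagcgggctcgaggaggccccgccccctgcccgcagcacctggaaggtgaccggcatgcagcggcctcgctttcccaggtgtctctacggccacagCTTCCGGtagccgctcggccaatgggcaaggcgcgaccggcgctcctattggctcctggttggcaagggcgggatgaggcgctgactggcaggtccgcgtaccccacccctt

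None of the 98 members passed the test in any comparison of the 4 groups, by limma with Benjamini-Hochberg adjustment over all 24736 genes tested at a threshold of 0.05. Over the 4 groups together limma called 0.315% of all genes, edgeR's quasi-likelihood test 0.667% and DESeq2 2.97%, with 0 members among each. By limma, 2 members, Atp5e and Atp5d, had an unadjusted p under 0.05 (9.21% of all genes), with adjusted p = 0.409 and 0.481, respectively. The typical standard error of a log2 fold change was 0.28 for the 77 broadly expressed nuclear members (range 0.22 to 0.43), 0.38 for the 7 high mitochondrial mRNAs and 0.81 for the 8 tissue-restricted isoforms. With 3 pools against 3, an exact permutation test of a single member cannot go below 0.1.

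In the comparison of DEX with control, limma called 0.121% of all genes, edgeR's quasi-likelihood test 0.182% and DESeq2 0.768%, with 0 members among each. The member with the clearest separation was Atp5d, the delta subunit in the central stalk of complex V. It was 286, 295 and 404 in control and 147, 158 and 254 in DEX, so that every DEX pool lay below every control pool, and 28 day recovery, at 262, 189 and 231, also lay below control. Its log2 fold change was -0.84 (SE 0.28, unadjusted p = 0.00899, adjusted p = 0.459 by limma) in DEX and -0.53 (SE 0.28, adjusted p = 0.811 by limma) at 28 days. In 7 day recovery Atp5d was 252, 392 and 263, which overlapped both. Some 68 bases of Atp5d overlap exons of Cbarp on the other strand. An unadjusted p under 0.05 was found for 3 members (6.8% of all genes), Atp5d and the minor isoforms Cox8b and Cox6b2. Without DEX pool 3 it was found for 7 members and for 1234 of all 24736 genes. Cox8b was 0.787, 0.471 and 2.39 in control and 2.24, 3.19 and 11.1 in DEX, with a log2 difference of 2.03 (SE 0.93, adjusted p = 0.712 by limma), and Cox6b2 was 0.157, 0.589 and 1.09 in control and 2.40, 0.736 and 4.60 in DEX, with a difference of 1.85 (SE 0.78, adjusted p = 0.685 by limma). For both isoforms the groups overlapped, and DEX pool 3 was the highest of all 12 pools.

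Of the 85 nuclear members, 20 had a log2 fold change above 0 in DEX against control (median -0.19), where 47.8% of all genes did. Of the 13 mitochondrial mRNAs, 11 were above 0, with a median of 0.14. Without DEX pool 3 the mitochondrial median was -0.05, and without control pool 3 the nuclear median was -0.03. Under plain CPM, without the TMM factors, 36 nuclear members were above 0, with a median of -0.05, while the median of all genes was 0.10. All 3 DEX pools lay above control for 1 member, mt-Atp8 (6.61% of all genes), and below for 1, Atp5d (6.23%). The typical member of either genome differed from control by less than its standard error.

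Between 7 day recovery and DEX, limma called 0.433% of all genes and edgeR's quasi-likelihood test 0.586%, with 0 members among each, while DESeq2 called 1 member (2.32% of all genes) and limma with array weights 2 (2.29%), all in the higher direction. Under the deposited scaling, 90 of the 98 members were higher in 7 day recovery, against 51.8% of all genes, with medians of 0.43 for the nuclear and 0.35 for the mitochondrial members. Under plain CPM without TMM factors the nuclear median was 0.06 and 50 of 85 members were higher, while the mitochondrial median turned to -0.02, and that scaling moves the median of all genes to -0.29. With 1 library left out, the nuclear median lay between 0.30 (without DEX pool 1) and 0.70 (without DEX pool 3). The mitochondrial median lay between 0.07, with 8 of 13 higher (without 7 day recovery pool 3), and 0.64 (without DEX pool 3). By limma, an unadjusted p under 0.05 was found for 17 members (10.8% of all genes), 16 of them in the higher direction (5.19%). Under plain CPM such a p was found for only 4 members, 2 of them in the higher direction (3760 of all 24736 genes). Without DEX pool 1 such a p was found for 3 members (1851 of all 24736 genes), and without DEX pool 3 for 47 (2521 of all genes). All 3 pools of 7 day recovery lay above all 3 of DEX for 13 nuclear members (6.97% of all genes), and below for 2, Cox8b and Cox6a2 (6.87% of all genes).

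Counts per complex were made only under the deposited scaling. By these, 33 of 35 nuclear members of complex I (median 0.42), 8 of 8 of complex III (0.41), 17 of 20 of complex IV (0.43) and 17 of 17 of complex V (0.58) were higher in 7 day recovery than in DEX. Under plain CPM, only 2 members of either genome had an unadjusted p under 0.05 in the higher direction by limma. Under the deposited scaling, such a p (5.19% of all genes) was found for 2 members of complex I, 0 of complex II, 2 of complex III, 3 of complex IV and 9 of complex V. All 3 pools of 7 day recovery lay above DEX (6.97% of all genes) for 3, 0, 1, 0 and 9 members in the same order. Whether the complexes differed from each other was not tested. Atp5e, the epsilon subunit in the central stalk, was 72.6, 92.6 and 137 in DEX and 171, 312 and 210 in 7 day recovery, with 114, 121 and 228 in control and 114, 145 and 192 in 28 day recovery. The pools of 7 day recovery and DEX did not overlap, whereas the control and 28 day pools overlapped with both. The log2 fold change of Atp5e between 7 day recovery and DEX was 1.20 (SE 0.33, unadjusted p = 0.00262, adjusted p = 0.134 by limma). Its adjusted p was 0.0350 by limma with array weights and 0.0336 by DESeq2, but it missed the threshold by edgeR's quasi-likelihood test. The other member called with array weights was Cox7c, an accessory subunit of complex IV, with a log2 fold change of 0.90 (adjusted p = 0.0378 by limma with array weights), beside 0.71 (adjusted p = 0.322 by limma) without them. The promoter printed for Atp5e holds an ETS/GABPA motif, whereas those of Cox7c and Ndufa1 hold none of the 3 motifs. A link between motifs and fold changes was not tested.

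Ndufa1, an accessory subunit of complex I encoded on the X chromosome, was 137, 156 and 226 in DEX and 229, 359 and 359 in 7 day recovery, beside 178, 188 and 287 in control and 183, 250 and 289 in 28 day recovery. Its log2 fold change between 7 day recovery and DEX was 0.87 (SE 0.30, adjusted p = 0.248 by limma), with the highest DEX pool just below the lowest 7 day pool. Uqcrh, the hinge protein of complex III, was 68.2, 80.0 and 113 in DEX and 114, 183 and 165 in 7 day recovery, beside 97.5, 102 and 162 in control and 95.4, 122 and 131 in 28 day recovery. Its log2 fold change was 0.82 (SE 0.28, adjusted p = 0.251 by limma). In both genes the gap between the groups was narrow, since DEX pool 3 nearly reached 7 day recovery pool 1. Complex II differed little, with a median of 0.18 over its 4 members.

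**Figure D3:**
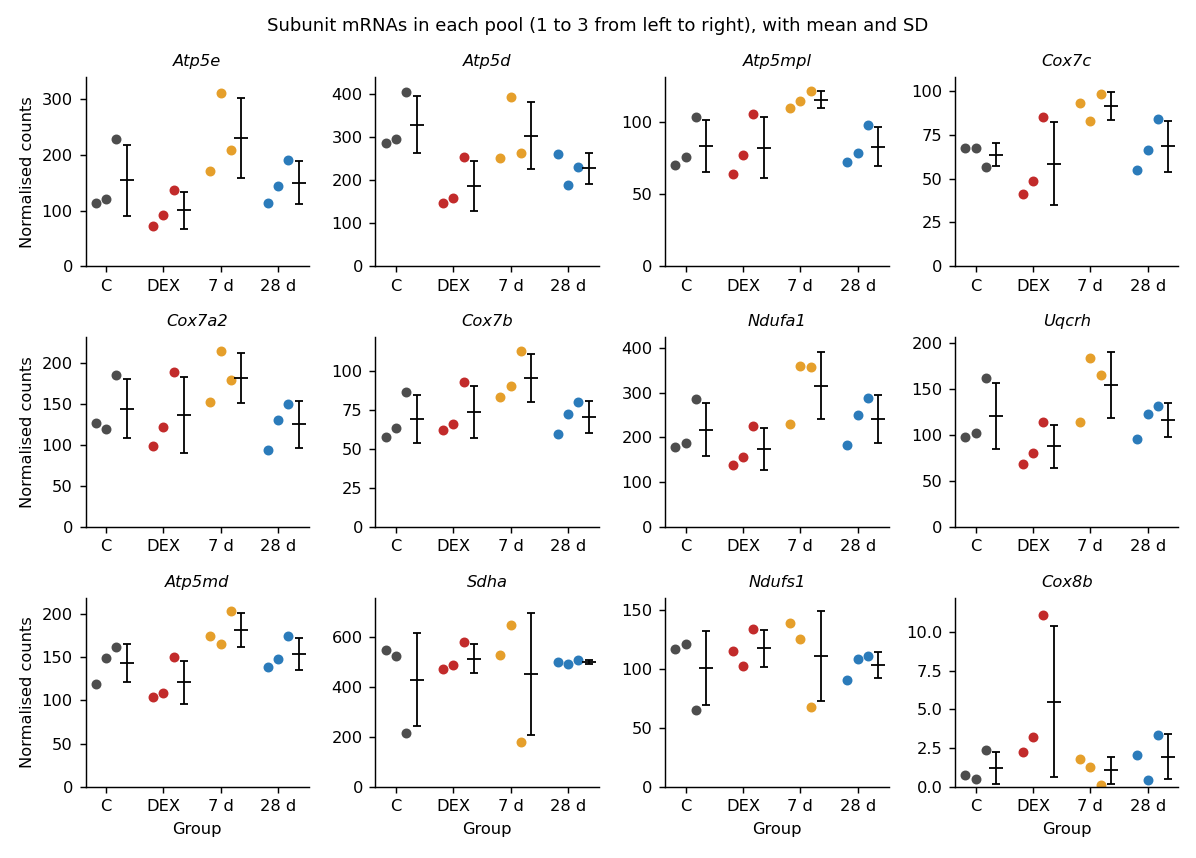
Normalised counts of 12 nuclear members, each panel 1 gene with an axis from 0, 1 point per pool and the mean ± SD beside each group (n = 3 pools). Atp5e in 7 day recovery lies at 171 to 312, above DEX at 72.6 to 137, and Atp5d in DEX lies at 147 to 254, below control at 286 to 404.

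In 7 day recovery against control, limma called 0.0% of all genes, edgeR's quasi-likelihood test 0.00809% and DESeq2 0.0323%, with 0 members among each. Under the deposited scaling 88 of 98 members were higher than control, against 50.2% of all genes, with medians of 0.24 (nuclear) and 0.50 (mitochondrial). Under plain CPM these medians were 0.02 and 0.27, and that of all genes was -0.19. With 1 library left out, the nuclear median lay between 0.11 (without 7 day recovery pool 2, 56 of 85 members higher) and 0.44 (without control pool 3), and the mitochondrial one between 0.30 (without 7 day recovery pool 3) and 0.73 (without pool 2 of that group). Without control pool 3, 13 members had an unadjusted p under 0.05 (1356 of all 24736 genes), and without 7 day recovery pool 1, 5 had one (1563 genes). The number was 0 without 7 day recovery pool 3 (1868 genes) and without 28 day recovery pool 2 (814 genes) or 3 (835 genes). With all pools, only mt-Co3 had such a p (3.79% of all genes). It was 15.1, 16.1 and 7.07 in control and 16.1, 22.6 and 26.0 in 7 day recovery, with a log2 difference of 0.81 (SE 0.37), an adjusted p of 1 by limma and overlapping pools. All 3 pools were higher for 9 members (3.47% of all genes) and lower for 0 (2.61%). Among these were Atp5mpl, a small accessory subunit of the membrane part of complex V, at 70.1, 75.9 and 104 in control and 110, 115 and 122 in 7 day recovery, and Cox7c at 67.5, 67.3 and 56.3 in control and 93.1, 82.6 and 98.4 in 7 day recovery. Their log2 fold changes were 0.49 (SE 0.25) and 0.52 (SE 0.27), respectively, and that of Atp5md, another accessory protein of complex V, was 0.34 (SE 0.23), each with an adjusted p of 1 by limma. Cox7c shares 315 bases at 99.4% identity with the annotated copy Gm10012, so its level is uncertain.

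In 28 day recovery against control, limma and edgeR's quasi-likelihood test both called 0.0% of all genes and DESeq2 0.243%, with 0 members among them, and 0 members had an unadjusted p under 0.05 by limma (6.35% of all genes). The median log2 fold change was -0.05 for the nuclear members, 33 of 85 being higher (49.7% of all genes), and 0.18 for the mitochondrial members. The nuclear median was 0.10 without control pool 3 and 0.09 without 28 day recovery pool 1, so its sign rested on single pools. It was also 0.09 with array weights, where 64 of 85 members were higher, and -0.19 under plain CPM, where 9 were. The median of all genes under plain CPM was -0.13. All 3 pools at 28 days were higher than control for 2 members, mt-Nd1 and mt-Atp6 (6.77% of all genes), and lower for 1, Atp5d (6.42%).

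In 28 day recovery against DEX, limma called 0.873% of all genes, edgeR's quasi-likelihood test 0.865% and DESeq2 2.65%, with 0 members among each. The only member there with an unadjusted p under 0.05 (9.94% of all genes) was mt-Atp8, which rests on 0 to 5 reads a library and for which no fold is given. The number was 6 without DEX pool 3 (2138 of all 24736 genes) and 25 with array weights (5243 of all genes). Under the deposited scaling 70 of 98 members were higher than in DEX (50.1% of all genes). Under plain CPM the nuclear median turned from 0.12 to -0.16 and the mitochondrial one from 0.08 to -0.20. That scaling moves the median of all genes to -0.24, which lies below both. The nuclear median was also -0.02 without DEX pool 1 and -0.01 without 28 day recovery pool 3. No member had all 3 pools above (9.8% of all genes) or below (9.67%) those of DEX.

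Between 28 and 7 days of recovery, limma and edgeR's quasi-likelihood test both called 0.0% of all genes and DESeq2 0.0606%, with 0 members among them, and 0 members had an unadjusted p under 0.05 by limma (5.47% of all genes). Only 8 of 98 members were higher at 28 days (47.3% of all genes), with medians of -0.31 (nuclear) and -0.25 (mitochondrial). Under plain CPM both medians kept this sign, at -0.23 and -0.17 (all genes 0.04), but without 7 day recovery pool 3 the mitochondrial median was 0.03. In the length classes set out further on, 0 of 28 short, 0 of 24 middle and 1 of 25 long nuclear members were higher. Of the other genes in these classes, 5 of 58 (8.62%), 40 of 299 (13.4%) and 2308 of 4560 (50.6%) were higher, respectively. All 3 pools at 28 days lay below all 3 at 7 days for 14 members (3.72% of all genes) and above for 0 (5.19%). Of these, Cox7a2, the broadly expressed isoform of a complex IV subunit, was 153, 214 and 179 at 7 days and 93.9, 130 and 150 at 28 days, with a log2 fold change of -0.56 (SE 0.29, adjusted p = 0.955 by limma). Cox7b, an X-linked complex IV subunit, was 82.9, 90.1 and 113 at 7 days and 59.4, 72 and 79.9 at 28 days, with a log2 fold change of -0.43 (SE 0.25, adjusted p = 1 by limma). Atp5mpl was 72.7, 78.6 and 98 at 28 days, below all of its 7 day pools, with a log2 fold change of -0.49 (SE 0.25, adjusted p = 0.946 by limma). The comparisons share pools, and each is given by its own values.

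**Figure D4:**
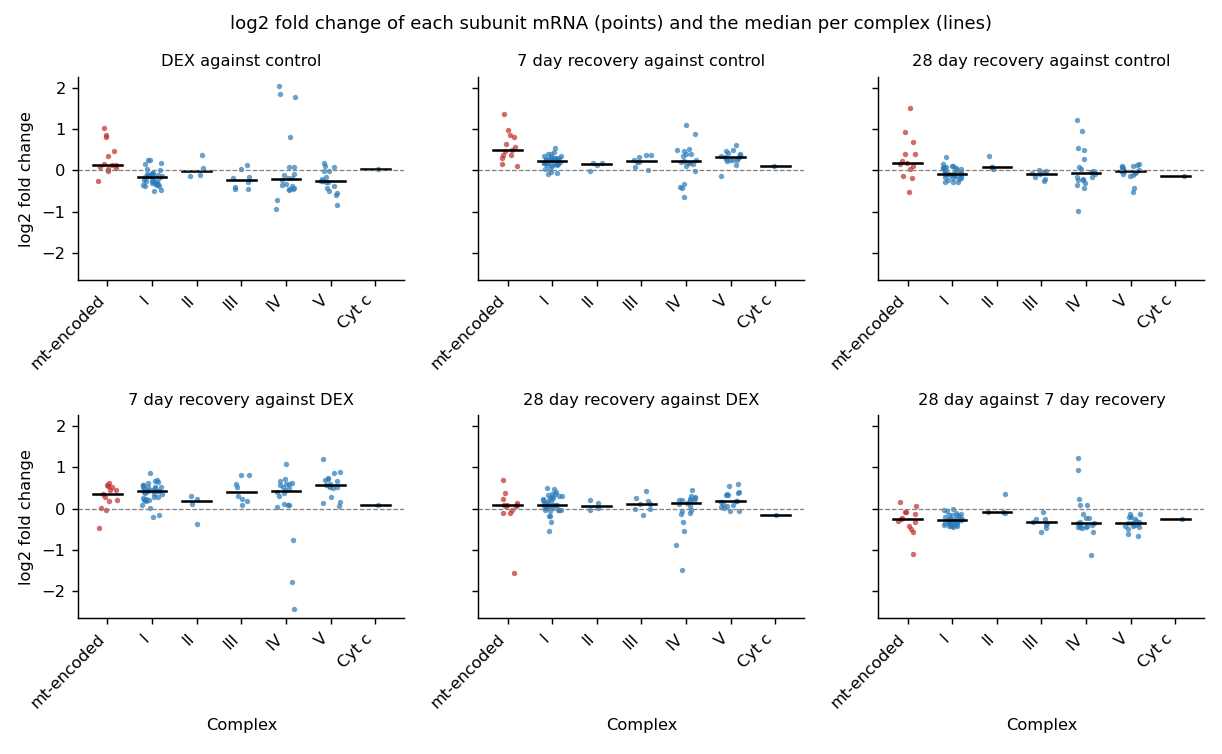
Log2 fold changes of the members in the 6 comparisons, 1 point per member, with the 13 mitochondrially encoded members in red and the nuclear members set out by complex in blue, and a line at the median of each set. Against DEX the 7 day values lie mostly above 0, with a nuclear median of 0.43 that is 0.06 under plain CPM, where that of all genes is -0.29. None of the 98 members was called by limma in any comparison.

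Pools of 1 group differed from each other as much as the groups did. Relative to its own mean over the 12 libraries, the median nuclear member was at -0.19, -0.18 and 0.36 in the control pools on the log2 scale, at -0.49, -0.36 and 0.26 in DEX, at 0.03, 0.46 and 0.30 in 7 day recovery and at -0.30, -0.04 and 0.19 in 28 day recovery. Control pool 3, DEX pool 3, 7 day recovery pool 2 and 28 day recovery pool 3 held 74, 75, 80 and 78 of the 85 nuclear members above their own mean. DEX pool 1 held the lowest value of 54 nuclear members, and 7 day recovery pool 2 held the highest of 38. The mitochondrial mRNAs followed another order: 7 day recovery pool 3 held the highest value of 9 of the 13, and their median there was 0.64, whereas in control pool 3 it was -0.30. That 7 day pool also had the highest mt-Rnr2, the large mitochondrial ribosomal RNA (9794, with the lowest library at 1396), and the highest Malat1, a nuclear retained RNA (14167). The part of RNA quality in these values was not tested.

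A few long transcripts went the other way. Sdha was 546, 526 and 216 in control, 474, 487 and 581 in DEX, 528, 650 and 178 in 7 day recovery and 502, 494 and 509 in 28 day recovery. Ndufs1, the largest core subunit of complex I, was 117, 121 and 65.0 in control, 115, 102 and 134 in DEX, 139, 126 and 67.7 in 7 day recovery and 90.5, 109 and 111 in 28 day recovery. In both genes control pool 3 and 7 day recovery pool 3 lay below the other 10 pools, and these are the pools in which mt-Nd4 was highest. Cycs, at 38.1, 38.3 and 35.6 in control, 33.5, 35.7 and 45.4 in DEX, 26.3, 57.6 and 43.2 in 7 day recovery and 34.6, 36.6 and 31.3 in 28 day recovery, had its lowest and highest values in 1 group.

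The medians of the members differed with transcript length, as did those of other genes. The 77 broadly expressed nuclear members were set beside other protein-coding genes with a mean of at least 30 normalised counts, genes of the ribosomal lists named further on left out, in 3 classes of transcript length that were set after the values had been seen. In the class of up to 700 bases, the 28 members had a median log2 fold change of 0.52 between 7 day recovery and DEX, and the 58 other genes one of 0.48. From 701 to 1200 bases, the medians were 0.50 for 24 members and 0.35 for 299 other genes. Above 1200 bases, they were 0.22 for 25 members and -0.08 for 4560 other genes. In DEX against control, the medians were -0.31 and -0.29, -0.22 and -0.20, and -0.10 and 0.09 for members and other genes in the same order of classes. In 28 against 7 day recovery, they were -0.37 and -0.25, -0.32 and -0.22, and -0.21 and 0.0042. In 7 day recovery against control, they were 0.28 and 0.20, 0.26 and 0.16, and 0.17 and 0.017. On the log2 scale, the short members and the short other genes had medians of 0.53 and 0.47 in control pool 3, of 0.53 and 0.41 in 7 day recovery pool 2 and of -0.59 and -0.55 in DEX pool 1. The part of transcript length in the values of the members was not tested.

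**Figure D5:**
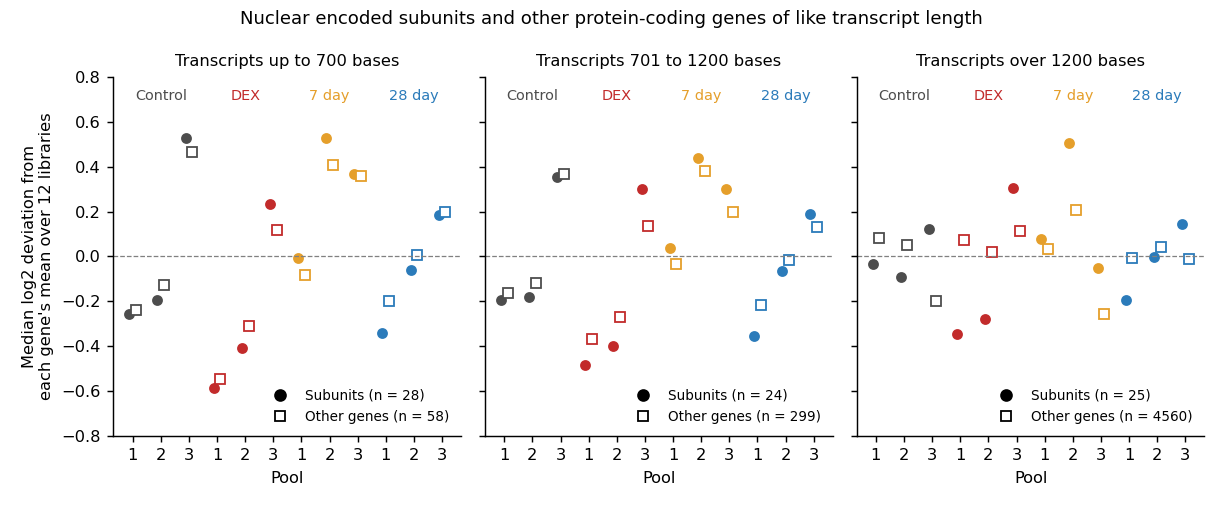
Median log2 deviation from the mean of each gene, per pool, for the broadly expressed nuclear members and for other protein-coding genes in 3 classes of transcript length. Filled points are members and open squares other genes. In the shortest class DEX pool 1 lies lowest, at -0.59 and -0.55, and control pool 3 lies at 0.53 and 0.47.

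Genes that build, supply or regulate the respiratory chain were read from lists of the same pathway. The 47 assembly factors had 0 genes called by limma in the 6 comparisons and a median of 0.16 between 7 day recovery and DEX. Their smallest p was that of Ndufaf5, a complex I assembly factor, with -1.23 (SE 0.38, adjusted p = 0.172 by limma) between 28 day recovery and DEX. The list of mitochondrial ribosomal proteins, whose ribosomes translate the mitochondrial mRNAs, held 80 tested genes with symbols that start with Mrpl or Mrps, or 77 without pseudogenes. It had a median of 0.23 between 7 day recovery and DEX, with or without these, and 1 gene called: Mrps6 fell by 1.51 on the log2 scale between DEX and 28 day recovery (SE 0.31, adjusted p = 0.0349 by limma). Mrps6 was 95.3, 74.8 and 179 in DEX and 31.5, 37.8 and 46.4 in 28 day recovery, lower in all 3 pools. Neither the 18 genes of mitochondrial DNA expression (median -0.13), the 16 genes of the tricarboxylic acid cycle and pyruvate dehydrogenase (-0.03), the 17 of glycolysis (0.03), the 9 carriers and channels (0.18), the 2 mitochondrial rRNAs (1.10) nor the 17 mitochondrial tRNAs that could be tested had a gene called by limma in the 6 comparisons. The list of cytosolic ribosomal proteins, 100 tested genes with symbols that start with Rpl or Rps, also took in S6 kinases and their relatives (Rps6k) and the binding protein Rps19bp1. Without these, 89 genes were left, with 0 called and a median of 0.79 between 7 day recovery and DEX, 86 of them higher.

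The 11 biogenesis regulators had a median of -0.12 between 7 day recovery and DEX and 0 genes called by limma. Ppargc1a, the coactivator PGC-1α, which is known to drive the transcription of respiratory genes, was 5.55, 7.77 and 4.04 in DEX and 19.8, 18 and 8.67 in 7 day recovery, beside 6.84, 9.78 and 8.37 in control and 15.1, 9.63 and 7.04 in 28 day recovery. The 7 day pools all lay above the DEX pools, with a log2 difference of 1.37 (SE 0.40, adjusted p = 0.152 by limma). In the mitochondrial carriers and channels, Ucp3, of the uncoupling protein family, had the smallest unadjusted p over the 6 comparisons (0.0159 by limma). This was between 7 day recovery, at 0.285, 0.382 and 0.222, and control, at 0, 0 and 0.109. These values rest on very few reads in every pool, so no fold is given. Ndufab1 had a log2 difference of 0.17 (SE 0.25, adjusted p = 0.870 by limma) between 7 day recovery and DEX.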

How the data were processed

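RNA of 12 pools of sorted Pomc-eGFP positive cells was amplified with the SMART-V4 kit, since it lay under the detection limit of the fluorometer, and sequenced in pairs on 1 lane. The authors trimmed the reads with Trim Galore 0.6.5, aligned them with STAR 2.7.1a to GRCm38 with the annotation of Ensembl release 98, and counted those with a mapping quality of at least 20 with featureCounts 2.0.0 in the reverse stranded setting. The kit does not mark strand, so reads of a gene and of its antisense partner cannot be told apart, which concerns 26 nuclear members with exons opposite another gene. What the authors deposited is a normalised signal for each gene in each library, namely CPM computed on library sizes that edgeR's TMM factors had adjusted. The plan had assumed plain CPM or counts, and the limma test planned for normalised values was kept. Dividing by the value of 1 read returned whole reads for 100.0% of 271881 values above 0, within a tolerance of 1e-06, and these were used for edgeR and DESeq2 as alternatives.

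Groups were taken from the sample labels. Values were tested as log2(value + 0.1) for 24736 genes above 0.1 in at least 3 libraries with limma 3.58.1 (lmFit, eBayes with trend) in R 4.3.3, in 1 model of 4 groups without covariates, with an F test and 6 contrasts, and an adjusted p under 0.05 was called. A fold change on this scale understates that of low genes. The alternatives were a pseudocount of 1, no filter, a filter at 1, median ratio scaling, plain CPM, scaling by reads outside the mitochondrial genes, array weights, edgeR 4.0.16 quasi-likelihood, DESeq2 1.42.0, the 2 groups alone, a replicate block and each library left out in turn. The limma and edgeR fits were tested on simulated data. Counts and tables were made in Python 3.11.15 (pandas 2.3.3, SciPy 1.17.1, matplotlib 3.10.9).

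The members and lists were chosen with earlier results of these data known. Named are the 13 mitochondrial members, any member called, for each contrast the 3 nuclear members with the smallest unadjusted p whose pools did not overlap, isoform pairs, core subunits, and pathway genes called or, per list and contrast, with the smallest p, of which the text gives a selection. One core subunit is not reported here by name. Members outside this rule, such as Uqcr11, Cox8b beyond its level and Cox6b2 beyond its level, as well as the grouping of the mitochondrial mRNAs into high and low, the tissue-restricted isoforms and the length classes, were chosen after their values were seen. Transcripts, lengths and copies came from GENCODE M21 (GRCm38), with 97 members matched by symbol and 1 (Atp5md) by a RefSeq synonym. Lengths are those of the longest principal transcript. Copies were searched with BLAST 2.17.0 over at least 100 bases at 98% identity, and 15 nuclear members had one, 0 of them over 90% of the transcript. Each p-value measures the spread between pools, and intervals cover counting error only, since reads without molecular identifiers are not independent molecules.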

Additional observations from a re-analysis of the deposited data

How the results depend on the processing

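The count of members called was 0 in each comparison and alternative run, except between 7 day recovery and DEX, where it was 2 with array weights (Atp5e and Cox7c) and 1 with DESeq2 (Atp5e). The 11 values of nuclear members named by p and pools for a comparison kept the sign of their log2 fold change in each alternative, with Atp5e between 0.83 and 1.45 and Atp5d in DEX between -1.09 and -0.69. Medians over the members moved with the scaling. Under plain CPM and under scaling by reads outside the mitochondrial genes, respectively, the mitochondrial median was 0.034 and 0.034 in 28 day recovery against control, -0.020 and -0.017 in 7 day recovery against DEX, and -0.20 and -0.20 in 28 day recovery against DEX, and the nuclear median was 0.056 and 0.059 in 7 day recovery against DEX. Plain CPM moved the median of all genes to -0.29 in 7 day recovery against DEX, and relative to it the nuclear median was 0.34 and the mitochondrial one 0.27. The median of all genes under plain CPM was -0.13 in 28 day recovery against control and -0.24 in 28 day recovery against DEX. With 1 library left out at a time, the mitochondrial median ranged from 0.081 (without 28 day recovery pool 3) to 0.24 in 28 day recovery against control, and from -0.46 to 0.030 (without 7 day recovery pool 3) in 28 against 7 day recovery. With the replicate number as a block, 0 members were called, and Atp5e had an adjusted p of 0.0559 by limma between 7 day recovery and DEX. An unadjusted p under 0.05 was found there for 38 members in place of 17. Over all 24736 genes the block gave 3094 in place of 2665. The correlation of deviations was over 0.1 in 7 of 18 pairs of the same number (range -0.29 to 0.40) and in 7 of 36 pairs of different numbers (-0.27 to 0.38), and 8 of 12 pools correlated best with one of their own number. Since not every pair passed 0.1, the main model held no block, and the block was run only as an alternative. These correlations cannot show that pools of the same number share nothing more than the number. Depth limits mt-Nd4l and mt-Atp8, which lie near the value of 1 read, and the 8 tissue-restricted isoforms, which rest on few reads. The other low mitochondrial mRNAs rest on more reads, but on far fewer than the high ones.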
